A study of Caenorhabditis elegans with 4 samples.

Results

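The regions described here are binding sites of a C34F6.9 fusion protein that lay in either of 2 broad stretches of *Caenorhabditis elegans* chromosome IV known to be rich in piRNA genes. A peak of the combined list was taken as a member when its midpoint fell from 4500000 to 7000000 (the left domain) or from 13500000 to 17200000 (the right domain) in WormBase build WS220. Members were taken by position alone, but the domains themselves were chosen with earlier results of these data known. The rule gave 271 of the 6494 combined peaks, 159 in the left domain and 112 in the right domain. It left 748 peaks in the rest of chromosome IV.

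The data are ChIP-seq peak lists from L2 larvae, the second larval stage. All animals were hermaphrodites of strain OP324 grown at 20 °C. They are mutant for unc119(ed3) and carry wgIs324, a transgene made by recombineering and introduced by bombardment that encodes C34F6.9 joined to the tags TY1, EGFP and FLAG together with a working unc119 gene. The labels record no outcross. Chromatin was fixed in 2% formaldehyde and collected with antibodies against GFP. The ChIP group has 2 samples and the input group, total DNA of the same strain, has 2. One list per ChIP sample and 1 combined list were analysed. Lists for the inputs or for an untagged strain were not analysed here, so the domains have no background value beside them. Whole larvae were used, so no cell type can be assigned to a peak, and depth is unknown because the lists hold no read counts. Whether the replicates came from separate cultures is not stated in the labels, so agreement between them may be technical.

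The piRNAs of *C. elegans* are short RNAs bound by the Argonaute protein PRG-1, a protein that protects the germ line from transposons and other foreign sequence. Most are made from very small transcription units, each with its own upstream motif, and very many of these units are crowded into the broad domains of chromosome IV, among and inside ordinary protein-coding genes. The factors PRDE-1 and SNPC-4 are known to act on these units. In the RefSeq gene table of assembly WBcel235, 14714 of 15363 piRNA genes (95.8%) were on chromosome IV. That table belongs to another build, so its positions were not set beside the peaks, and the piRNA content of the domains was not measured here. No genome of build WS220 was used, so no gene is assigned and no sequence or motif is shown. The same table lists C34F6.9 itself as a protein-coding gene of chromosome X with no other name.

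The domains differed from each other in how many sites they held. The right domain was sparse, with 112 combined peaks in 3.7 Mb, or 30.3 per Mb (exact Poisson 95% interval 24.9 to 36.4). The left domain held 159 peaks in 2.5 Mb, or 63.6 per Mb (54.1 to 74.3), and the rest of IV held 748 peaks in 11.3 Mb, or 66.3 per Mb (61.6 to 71.2). The left domain was thus 2.10 times as dense as the right domain (95% interval 1.64 to 2.70) by a two-sided exact binomial test (p = 1.3e-09, and 6.0e-09 after Benjamini-Hochberg adjustment over 14 tests).

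Against the rest of chromosome IV, the right domain had 0.457 times the density (0.371 to 0.558, exact binomial test, adjusted p = 4.0e-16). The ratio of the left domain was 0.960 (0.804 to 1.14, exact binomial test, adjusted p = 0.72), an interval that holds both lower and higher densities. For both domains together the ratio was 0.660 (0.572 to 0.759, exact binomial test, adjusted p = 6.5e-09), a value that averages the sparse right domain with a left domain near the chromosome's level. The domains make up 35.4% of the length of IV and held 26.6% of its combined peaks. Peaks cluster, which an exact binomial test does not allow for. In a quasi-Poisson model of the right domain and the rest of IV over 100 kb windows, counts varied 1.83 times as much as independent peaks would. Such a model leaves the ratio itself unchanged. For the right domain its interval was 0.349 to 0.599 (37 against 113 windows). For the left domain the same model gave 0.754 to 1.22.

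The right domain is on an arm of the chromosome, and outside the domains the left arm held 51.6 combined peaks per Mb (45.1 to 58.6) and the stretch between the domains 76.6 (70.0 to 83.6). Each domain was therefore set beside its mirror interval, the stretch at the same distances from the other end of IV. The mirror interval of the right domain, on the left arm, held 181 peaks, or 48.9 per Mb (42.1 to 56.6). The right domain had 0.619 times that density (0.484 to 0.788, exact binomial test, adjusted p = 0.00013). With only the upper 50% of the combined list by rank, the ratio was 0.728 and its adjusted p was 0.13. The mirror interval of the left domain held 188 peaks, or 75.2 per Mb (64.8 to 86.8), and the left domain had 0.846 times that density (0.680 to 1.05, exact binomial test, adjusted p = 0.21). Against the parts of IV outside both the domains and the central one of 3 equal parts of its length, which held 56.9 peaks per Mb, the right domain had a ratio of 0.532 (0.427 to 0.659). This last comparison was added after the densities were seen.

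**Figure D1:**
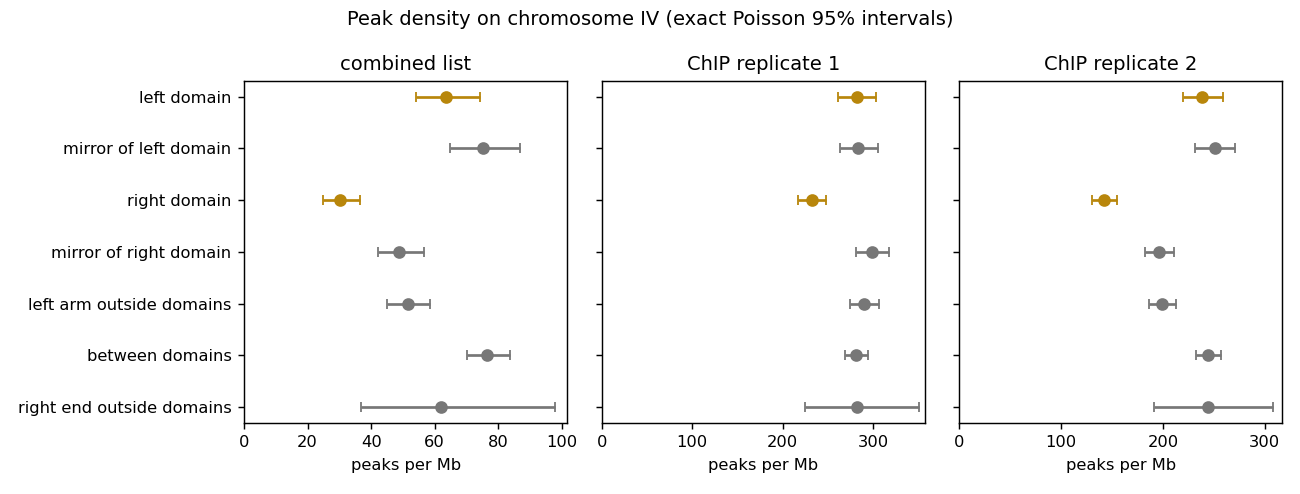
Peaks per Mb (x axis) in the combined list and in each ChIP replicate for stretches of chromosome IV (y axis). Points are densities, bars are exact Poisson 95% intervals, and the piRNA domains are in gold. In the combined list the right domain, at 30.3 per Mb, is below its mirror interval, at 48.9 per Mb, and the left domain, at 63.6, overlaps its own at 75.2.

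A stretch as sparse as the right domain was not found on chromosome IV alone. The right domain begins 0.290 Mb from its chromosome end and reaches to 3.99 Mb from it. At the same distances from the 12 ends of the nuclear chromosomes, combined densities ran from 17.3 per Mb (13.3 to 22.1) at the right of V to 73.8 (65.3 to 83.1) at the right of III. In the combined list the right domain was number 2 from the lowest, and in each full replicate list it was number 4, with the left of II and both ends of V below it. The left of V, with 32.2 per Mb (26.6 to 38.5), and the left of II, with 33.0 (27.4 to 39.4), had intervals that overlap its own. The next, the left of IV, is the mirror interval with 48.9. In the RefSeq gene list V as a whole has 202 piRNA genes and II has 109, against 14714 on IV. The piRNA genes within these intervals were not counted, and a relation of their number to peak density was not tested.

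**Figure D2:**
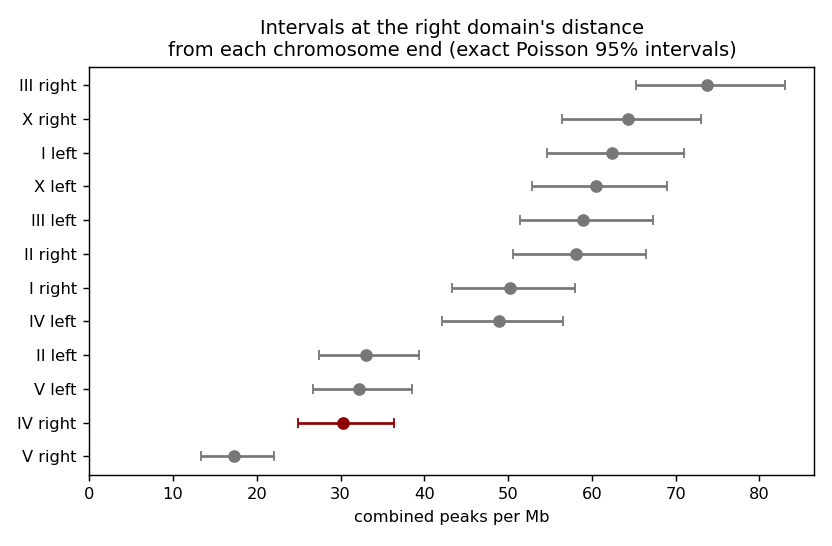
Combined peaks per Mb (x axis) in the interval of equal length and equal distance from each chromosome end (y axis), ordered by density, with exact Poisson 95% intervals. The right piRNA domain, in red, is next to the left of V and the left of II, and the right of V is lower at 17.3 per Mb.

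Within the domains, sites were unevenly spread. In the left domain 25 windows of 100 kb held from 0 to 13 combined peaks with a median of 7. In the right domain 37 windows held from 0 to 9 with a median of 2, and 10 of them held 0 or 1 peak. The rest of IV had a median of 7 over 112 windows, of which 11 held 0 or 1 peak and 23 held 10 or more. In the right domain no window reached 10 peaks, whereas 5 windows of the left domain did.

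Blocks of 500 kb showed the same order. The 7 whole blocks of the right domain held 9 to 23 combined peaks (median 17). The 13 blocks between the domains held 32 to 51 (median 35), with no overlap with the right domain. The 9 blocks of the left arm held 15 to 32 (median 26), and the 5 blocks of the left domain held 22 to 47 (median 25), so both overlapped it. The second 1.85 Mb of the right domain had 22.7 peaks per Mb (16.4 to 30.7) and the first had 37.8 (29.5 to 47.8). Their intervals overlap, and the difference was not tested.

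**Figure D3:**
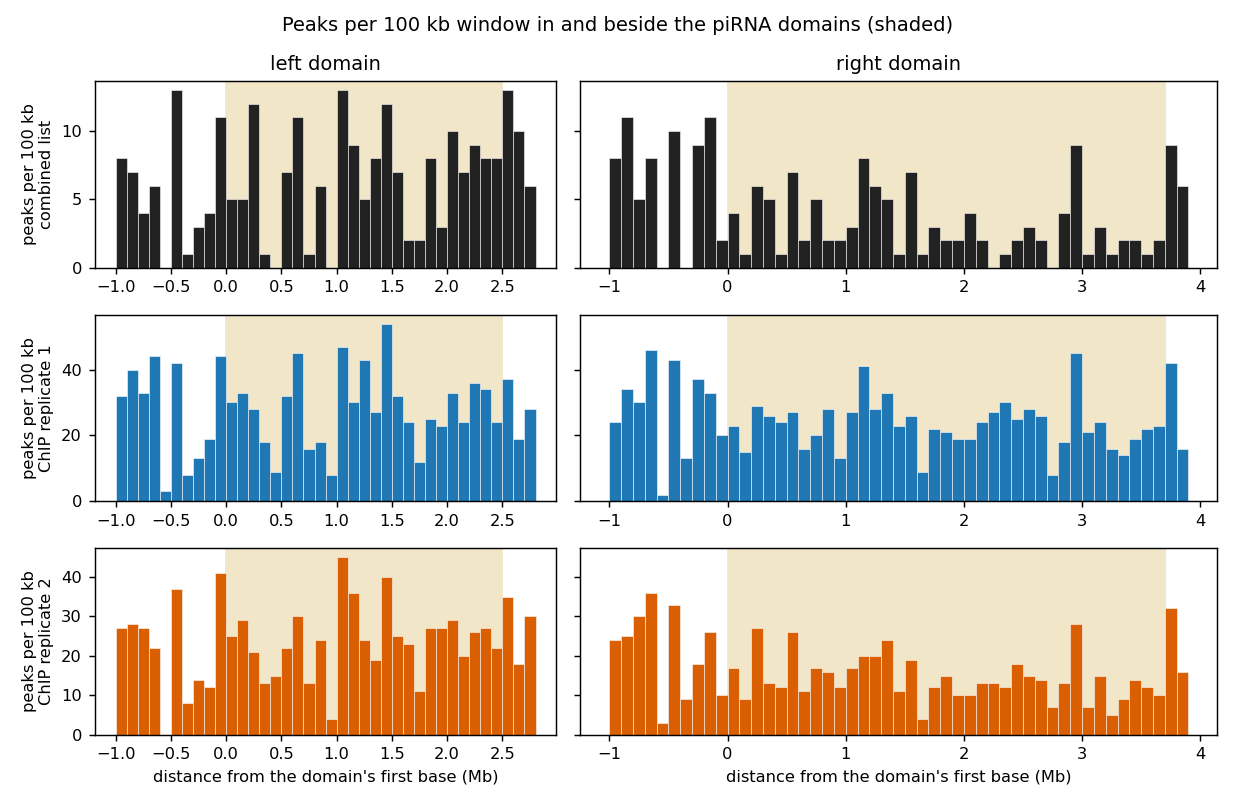
Peaks per 100 kb window (y axis) along each domain and its flanks (x axis, distance from the domain's first base in Mb) in the combined list and both ChIP replicates, with the domains shaded. Combined counts in the right domain stay between 0 and 9, and those in the left domain reach 13, with 4 windows of 0 or 1 peak.

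The windows with most combined peaks had the following counts. In the left domain the window at 5500001 to 5600000 held 13 combined peaks, 47 peaks of replicate 1 and 45 of replicate 2. Next came 2 windows with 12 combined peaks each. That at 5900001 to 6000000 held 54 and 40 replicate peaks, the former being the most of any window of the left domain in replicate 1. That at 4700001 to 4800000 held 28 and 21, where the medians of the left domain were 28 and 24. In the right domain the fullest window of all 3 lists, at 16400001 to 16500000, held 9, 45 and 28, and that at 14600001 to 14700000 held 8, 41 and 20. Over the 62 windows of both domains the counts of the replicates had a Spearman rho of 0.78, given as a description, since both lists come from the same strain over the same stretches. In the rest of IV rho was 0.75 over 112 windows.

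Empty stretches took up much of the right domain. Gaps between consecutive combined peaks there had a median of 14.6 kb (quartiles 3.90 and 49.1 kb), against 6.62 kb (2.14 and 17.8 kb) in the left domain and 7.21 kb (2.01 and 19.9 kb) in the rest of IV. Of 107 gaps in the right domain, 26 were longer than 50 kb, and they made up 70.0% of all gap length. In the left domain 10 of 148 gaps were that long (40.1% of gap length), and in the rest of IV 37 of 712 (27.3%). The other arm lay between the right domain and the rest of IV. In the mirror interval of the right domain the median gap was 11.3 kb, and 17 of 174 gaps were over 50 kb (39.5% of gap length). On the left arm outside the domains the values were 10.0 kb and 39.2%.

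**Figure D4:**
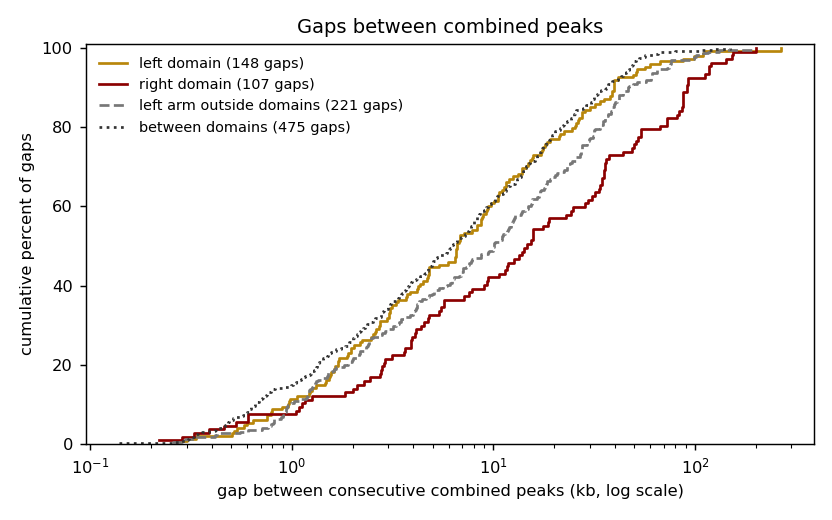
Cumulative percent of gaps (y axis) against gap length in kb (x axis, log scale) between consecutive combined peaks for the 2 domains and the 2 larger stretches outside them. At the quartiles and the median (3.90, 49.1 and 14.6 kb) the curve of the right domain is to the right of the others. At these points that of the left domain is near the stretch between the domains. The longest gap, 268 kb, is in the left domain, against 201 kb in the right domain and 150 kb between the domains.

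The longest gap of either domain was in the left one, from 4810668 to 5078751, a stretch of 268 kb in which the mean density of IV would give 15.6 combined peaks. Replicate 1 had 43 peaks in it and replicate 2 had 37, where their own means on IV would give 73.3 and 56.4. One of the 43 ranked among the first 6494 of replicate 1, at rank 6358, and 0 of the 37 did so in replicate 2. The stretch was therefore not empty of lower-ranked replicate peaks, and 16 of the 43 overlapped a peak of the other replicate. It was chosen for its lack of combined peaks, so low replicate counts and few high-ranked peaks follow in part from that choice. The next gaps of the left domain ran from 5395025 to 5507672 (113 kb) and from 5209665 to 5318806 (109 kb).

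In the right domain the longest gap ran from 16181231 to 16382275, or 201 kb, where the mean of IV would give 11.7 combined peaks. It held 25 peaks of replicate 1 and 12 of replicate 2, and 3 of the 25 overlapped a peak of the other replicate. The gap from 16502164 to 16656281 (154 kb) held 32 and 12 peaks, and that from 15107595 to 15259658 (152 kb) held 17 and 8. None of the peaks in these 3 gaps ranked among the first 6494 of its list. On all of IV, 91.8% of such peaks of replicate 1 and 90.3% of those of replicate 2 overlapped a combined peak. A stretch picked for having no combined peak will thus hold few of them, and fewer replicate peaks in total. These counts are therefore not a separate finding about the gaps.

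Close pairs of peaks occurred in both domains. Some of these pairs overlap, so they need not be separate sites: 14 combined peaks in the domains overlapped the one before, and 47 on all of IV. In the right domain 23 of 112 members (20.5%, exact 95% interval 13.5 to 29.2%) had another combined midpoint within 1 kb, and in the left domain 33 of 159 (20.8%, 14.7 to 27.9%). Over both domains the share was 20.7%, against 19.0% in the rest of IV (Fisher's exact test, two-sided, odds ratio 1.11, adjusted p = 0.69) and 19.1% in the whole combined list. The median distance to the nearest midpoint was 4473 bp in the right domain, 2483 bp in the left and 2588 bp in the rest of IV.

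The longest run of members with gaps under 1 kb had 4 peaks and lay in the left domain, just after its longest gap. Its members were at 5088910 to 5089365, 5089638 to 5090093, 5089840 to 5090295 and 5091253 to 5091400, and the middle pair overlap. In the right domain the longest run had 3 entries, of which 2 are the same interval, 14032911 to 14033607, listed under peak numbers 1574 and 2873. The third was at 14033936 to 14034098.

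The highest-ranked members had partners near the top of both replicate lists. They were taken among members found in both replicates, and the combined list was made from these, so this is not independent support. As 73.2% of all combined peaks share the highest score, the number in the peak name decided their order, and the partner given for a replicate is its highest-ranked overlapping peak. Below the highest score, number and rank by score can differ, as for combined peak 6173 at rank 6124. They can differ far more in a replicate list: peak number 2181 of replicate 2 was at rank 5683, and number 4635 at rank 1946. Replicate ranks in the text are by score. In the left domain, the first was combined peak 3 at 4749850 to 4750253, ranked 8 in replicate 1 and 2 in replicate 2. Peak 48 at 6336668 to 6337071 ranked 56 and 44. Peak 66 at 6790426 to 6790758 ranked 78 and 66, and peak 118 at 6919375 to 6919678 ranked 86 and 195. The fifth, peak 181 at 4660327 to 4660803, ranked 188 and 192.

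The right domain began lower in the list. Its first member was combined peak 68 at 15471439 to 15471796, ranked 102 in replicate 1 and 57 in replicate 2. Peak 225 at 15472399 to 15472728, ranked 280 and 221, had its midpoint only 946 bp away, so 2 of the 5 leading sites of the right domain are neighbours. Peak 165 at 14464118 to 14464415 ranked 120 and 262. Peak 262 at 16656282 to 16656561, which ends a 154 kb gap, ranked 451 and 168. Peak 271 at 15696748 to 15697107 ranked 428 and 215 and was isolated, with its nearest neighbour 50176.5 bp away. All 10 leading members were 280 to 477 bp wide in the combined list.

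Neither the score nor the width of the members passed the test against the rest of IV. Of the 271, 193 had the highest score of the list, 3.50 (71.2%, against 71.7% in the rest of IV, odds ratio 0.979, Fisher's exact test, adjusted p = 0.94, and 73.2% in the whole list). The share was 69.8% in the left domain and 73.2% in the right. The other 78 scored 2.40 to 3.33. Of the first 1000 combined peaks, 27 were in the left domain and 19 in the right, which is 17.0% of the members of each, and 15.9% of the peaks in the rest of IV were among them.

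The commonest width, 456 bp, was that of 106 members in the left domain (66.7%) and 67 in the right (59.8%, exact 95% interval 50.1 to 69.0%). Over both it was 63.8%, against 66.7% in the rest of IV (odds ratio 0.881, Fisher's exact test, adjusted p = 0.57) and 67.3% in the whole list. Widths ran from 114 to 697 bp. The median was 285 bp for the 138 members in the upper 50% of the list by rank and 456 bp for the other 133.

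Replicate support was high in both domains. All 112 members in the right domain and 158 of 159 in the left overlapped a peak of both replicates by at least 1 bp, or 99.6% in all, close to 99.4% in the whole list. The exception, combined peak 3150 at 4788292 to 4788747, matched replicate 1 at rank 3169 and no peak of replicate 2. The combined list was made from these replicates, so such overlap is not independent evidence of binding.

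With a 50% reciprocal overlap, 136 members of the left domain (85.5%, exact 95% interval 79.1 to 90.6%) and 86 of the right (76.8%, 67.9 to 84.2%) were matched in both replicates. Together this was 81.9%, against 84.1% in the rest of IV (odds ratio 0.857, Fisher's exact test, adjusted p = 0.57) and 83.7% in the whole list. Midpoints of the replicate partners of 1 member lay a median of 23.3 bp apart in the left domain, 21.5 bp in the right and 24.5 bp in the rest of IV. The partners of members had median ranks of 2893 in replicate 1 and 3011 in replicate 2 for the left domain, and 2914 and 2888 for the right.

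The replicate lists reach further down the ranks, and there the right domain was less sparse. Overlapping peaks are counted apart in these lists. In replicate 1, 816 of 4785 peaks on IV overlapped the one before, with 238 such peaks in the domains. In replicate 2 it was 554 of 3682, with 145 in the domains. Replicate 1 had 859 peaks in the right domain, or 232 per Mb (217 to 248), 705 in the left, or 282 per Mb (262 to 304), and 285 per Mb in the rest of IV. Replicate 2 had 527 in the right domain, or 142 per Mb (131 to 155), 597 in the left, or 239 per Mb (220 to 259), and 227 per Mb in the rest of IV. The right domain was the sparser in both, with ratios to the rest of 0.814 in replicate 1 and 0.629 in replicate 2, both nearer to 1 than the 0.457 of the combined list. Its mirror interval was also below the rest of IV in the combined list (48.9 against 66.3 per Mb). That interval had 299 per Mb in replicate 1, above the rest of IV, and 196 in replicate 2. A shift towards the rest of IV was therefore not limited to the right domain.

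For both domains together the ratio to the rest of IV was 0.884 in replicate 1 (0.832 to 0.940, exact binomial test, adjusted p = 0.00013) and 0.800 in replicate 2 (0.745 to 0.859, adjusted p = 2.2e-09). In replicate 1 this call was lost in the quasi-Poisson model over 100 kb windows (unadjusted 95% interval 0.786 to 0.995) and after peaks within 500 bp were merged (ratio 0.953).

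Going down the ranks of each replicate, the ratio of the right domain rose. Among the first 5000 peaks of replicate 1 it had 24.1 peaks per Mb against 50.9 in the rest of IV, a ratio of 0.472 (95% interval 0.373 to 0.591). The ratio was 0.532 for ranks 5001 to 10000, 0.789 for 10001 to 15000, 0.889 for 15001 to 20000 and 1.16 (0.981 to 1.37) for 20001 to 25000, with 1.06 for the rest of the list. In replicate 2 it was 0.455 (0.358 to 0.572) for the first 5000, then 0.479, 0.661 and 0.805, and 0.801 (0.636 to 1.0007) for ranks 20001 to 23374. In the left domain the first 5000 gave 0.919 (0.747 to 1.12) in replicate 1 and 0.911 (0.739 to 1.12) in replicate 2, and the later bands neither rose nor fell throughout. They ran from 0.799 (ranks 25001 to 29725) to 1.18 (ranks 5001 to 10000) in replicate 1 and from 0.842 (ranks 20001 to 23374) to 1.37 (1.14 to 1.64, ranks 10001 to 15000) in replicate 2. The bands were examined after the densities were known and carry no test. They were not computed for the mirror interval or the left arm.

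**Figure D5:**
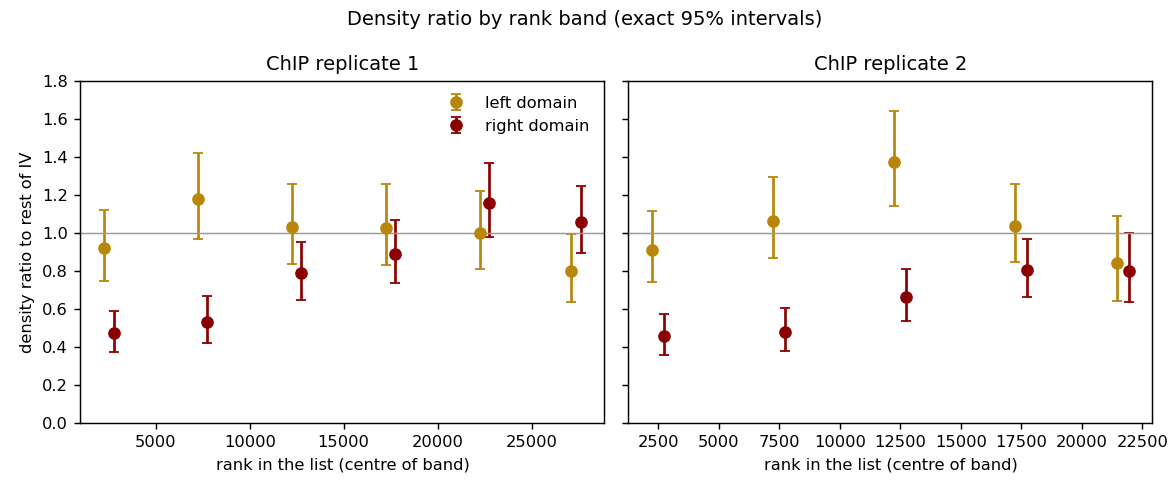
Density in each domain divided by density in the rest of chromosome IV (y axis) for bands of 5000 ranks in each replicate list, the last band being shorter (x axis, points of the domains set slightly apart). Bars are exact 95% intervals. The right domain, in red, starts at 0.472 and 0.455, reaches 1.16 in replicate 1 for ranks 20001 to 25000, and ends at 1.06 and 0.801 in the last band, and the left domain starts at 0.919 and 0.911.

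Overlap between the full replicate lists was lower in the right domain than in the left domain and the rest of IV, and for replicate 1 peaks it was also lower on the left arm. These differences were not tested. Of its replicate 1 peaks, 39.3% (exact 95% interval 36.1 to 42.7%) overlapped any peak of replicate 2, against 62.0% (58.3 to 65.6%) in the left domain and 57.9% (56.2 to 59.6%) in the rest of IV. In the mirror interval of the right domain it was 47.7% (44.7 to 50.7%), and on the whole left arm outside the domains 50.0%. Of its replicate 2 peaks, 61.5% (57.2 to 65.7%) overlapped one of replicate 1, against 70.5% in the left domain, 69.2% in the rest of IV and 69.1% (65.5 to 72.4%) in the mirror interval. A denser list gives more overlap by position alone, and the density of the right domain is lower in both lists. How much of the difference this makes up was not tested. The median score of replicate 1 peaks was 0.163 in the right domain, 0.189 in its mirror interval, 0.317 in the left domain and 0.292 in the rest of IV.

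Fewer replicate peaks of the domains than of the rest of IV had a counterpart in the combined list. Such shares depend on the densities of both lists. The ratios of the domains to the rest of IV were 0.660 in the combined list and 0.884 and 0.800 in the replicates. Lower shares follow largely from these ratios, so the tests of them are not separate support. In replicate 1 it was 329 of 1564 peaks (21.0%), against 28.9% in the rest of IV (odds ratio 0.655, Fisher's exact test, adjusted p = 1.4e-08) and 26.7% over the whole replicate list. In replicate 2 it was 321 of 1124 (28.6%), against 34.3% in the rest of IV (odds ratio 0.765, Fisher's exact test, adjusted p = 0.0010) and 33.5% over the whole list. The share was lowest in the right domain, with 15.8% (13.5 to 18.4%) in replicate 1 and 24.9% (21.2 to 28.8%) in replicate 2, while the left domain had 27.4% and 31.8%. Low shares were not limited to the domains: the mirror interval of the right domain had 19.9% (17.6 to 22.3%) and 29.0% (25.7 to 32.5%), and the left arm outside the domains 21.6% and 30.1%. The stretch between the domains had 34.2% and 36.9%. Among the first 6494 peaks of each replicate neither difference passed the threshold, and in replicate 2 it turned. In replicate 1, 88.7% of domain peaks and 93.0% of those in the rest of IV overlapped a combined peak (odds ratio 0.597, Fisher's exact test, adjusted p = 0.067). In replicate 2 it was 91.8% and 89.8% (odds ratio 1.27, Fisher's exact test, adjusted p = 0.57).

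At the borders, the first member of the left domain was peak 6173 at 4506602 to 4507057, and the last peak before it was at 4477195 to 4477455. The last member of the left domain was at 6958655 to 6959110 and the first peak after it at 7012699 to 7013154. The right domain began with a peak at 13502848 to 13503303, after one at 13453453 to 13453908. It ended with one at 17121000 to 17121455, before one at 17209220 to 17209675. The 0.290 Mb beyond it, up to the last peak of the chromosome, held 18 combined peaks, or 62.0 per Mb (36.8 to 98.0).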

How the data were processed

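Peak lists of ChIP replicates 1 and 2 and 1 combined list were used, each in GFF version 3 on WormBase build WS220, per the file headers. Each deposited peak is marked as made with SPP, a peak caller, and IDR, a method based on reproducibility. Not given in the sources used here: aligner, versions, thresholds, use of the inputs, and how the lists were combined. The authors' score of each deposited peak has no stated scale and served only to rank peaks within a list, with ties in the order of the peak number. A score is not read as a size of binding.

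Members were peaks with midpoints in the stated intervals. The length of IV, 17.5 Mb, is the largest peak end over the lists. Peaks overlapped when they shared at least 1 bp, or 50% of each where stated. Densities were compared by two-sided exact binomial tests against length, shares by two-sided Fisher's exact tests, with Benjamini-Hochberg adjustment over 14 tests (threshold 0.05). Intervals are exact 95% Poisson or Clopper-Pearson intervals. They cover counting error only, since peaks are not independent, and the p-values speak of peaks in these lists, not of replicate samples. Gaps were measured after merging overlapping peaks. Alternatives were quasi-Poisson models over 100 and 500 kb windows, merging, halved lists, borders moved by 200 kb, each replicate alone and other overlaps. The regions named were the 5 highest-ranked members of each domain found in both replicates, the border peaks, the 3 longest gaps, the 2 fullest windows (ties by position, with the tied window also given) and the longest run. The domains, tests and regions were chosen with earlier results of these data known. The steps were tested on simulated lists. In the density simulations peaks were placed independently, so that check does not cover clustered peaks. The software was scipy 1.17.1, numpy 2.4.6 and pandas 2.3.3 under Python 3.11.15, with figures by matplotlib 3.10.9.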

Additional observations from a re-analysis of the deposited data

Results flagged for a closer look

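The 2 domains differed in their density relative to the same rest of chromosome IV, and the difference itself was tested: the left domain was 2.10 times as dense as the right domain in the combined list (63.6 against 30.3 peaks per Mb, exact binomial test, adjusted p = 6.0e-09). Over its 8 alternatives this ratio was between 1.94 and 2.34, with adjusted p-values up to 0.0063. The right domain is nearer to a chromosome end. The mirror intervals of the 2 domains, which are at the same distances from the other end, held 75.2 and 48.9 peaks per Mb. The right domain had 0.619 times the density of its mirror interval (exact binomial test, adjusted p = 0.00013) and the left domain 0.846 times that of its own (adjusted p = 0.21, exact binomial test). In the quasi-Poisson model over 100 kb windows the intervals of these ratios were 0.445 to 0.860 and 0.609 to 1.17. Whether these ratios differ was not tested.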

How the results depend on the processing

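In all 91 alternative values were computed, of which 80 had the direction of the main value and lay on the same side of the threshold. Of the 91, 11 were added after the data were seen (identical intervals counted once, and for the right domain the central part of IV left out, the lower 50% of the combined list and each full replicate list). For many of the 80 this meant staying above the threshold. The quasi-Poisson models use the same counts and repeat the main ratio by construction. Their direction could not change, only their intervals and p-values. The density ratio of the right domain to the rest of IV was between 0.413 and 0.814 over 14 alternatives, highest with the full list of replicate 1. With 1 replicate left out, the highest-ranked 6494 peaks of the other were used in place of the combined list: the ratio was then 0.447 to 0.492, that of the right domain to its mirror interval 0.617 to 0.665, and that of the left domain to the rest of IV 0.913 to 0.955. Calls were lost for the right domain against its mirror interval with the upper 50% of the list (ratio 0.728), for the domains in the list of replicate 1 over 100 and 500 kb windows (ratio 0.884 in both) and with merged peaks (0.953), and for the replicate 1 peaks carried into the combined list among its first 6494 (odds ratio 0.597). The same alternative turned the direction in replicate 2, to an odds ratio of 1.27. That alternative holds fewer peaks, and the cause of the turn was not tested. For 4 results that were not called, 5 values crossed 1, again without passing the threshold: the left domain against the rest of IV with the upper 50% of the list (1.002) and with borders moved outward (1.04), replicate support with 1 bp overlap (1.82), the share in the upper 50% of the list in place of the highest score (1.14), and neighbours within 2000 bp (0.753). The cause was not tested. No paired analysis was possible because only ChIP lists were used, and the inputs with the same replicate numbers are not analysed here. Read depth is unknown, so a sparse stretch cannot be told apart from one where fewer reads could be placed.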

Other observations

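Some intervals were listed more than once. In the combined list 46 intervals occurred 2 times with identical start and end, 5 of them on chromosome IV and 1 in the right domain, at 14032911 to 14033607 under peak numbers 1574 and 2873. That interval, 697 bp wide, was the widest of all members. In the domains 14 combined peaks overlapped the one before. With identical intervals counted once, the right domain held 111 peaks.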
